A study of Rattus norvegicus with 30 samples.

Results

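The 8 transcripts described here are rows of a rat brain RNA-seq table that carry no gene name. They are 8 of the 17134 rows of the table: ENSRNOG00000064228, ENSRNOG00000063986, ENSRNOG00000066451, ENSRNOG00000062707 and ENSRNOG00000065100, which were lower in most amylin knockout rats, and ENSRNOG00000062944, ENSRNOG00000064257 and AC130970.1, which were higher in most of them. They were picked by these names because their values set the knockout rats apart from the others in an earlier look at the same rats. Their differences between the knockout rats and the other groups are therefore given as values, and where a count of test calls on them is given it restates the choice.

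Brain RNA of 30 male Sprague Dawley rats on a normal diet was sequenced, 10 rats in each of 3 groups. WT rats express their own rat amylin. HIP rats express human amylin, beside the rat hormone, in the pancreas and develop type-2 diabetes. HIP and WT rats were in the second year of life. AKO rats lack rat amylin, and an age for these 10 rats is not given in the sources used here.

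The tissue is called frontal cortex in the sample annotation, cerebral cortex in the methods and hippocampus elsewhere. All WT and HIP rats have names with the letters RT, while the AKO rats are named KAH (4 rats) or AKO (6 rats). What the letters stand for is not given, so genotype and series of animals cannot be told apart. The table used here has no row for Iapp, the gene of amylin, so the targeted gene was not examined.

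A genome annotation is larger than the set of genes with known roles. Gene models built by an annotation pipeline receive a stable identifier, and a symbol follows only where a model can be matched to a known gene. A model without a symbol can be a long non-coding RNA, a pseudogene, a copy of a known gene or a stretch of a neighbouring transcript, and reads that match more than one model are either dropped or divided between them. Amylin itself is a peptide hormone that pancreatic β-cells release together with insulin, and it acts on receptors in the brain that limit food intake.

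Of all rows, 2335 were named by an Ensembl identifier alone and 548 by a clone. AC130970.1 takes its name from a genomic clone and has the Ensembl identifier ENSRNOG00000042445. The RefSeq genes of rat assembly GRCr8 matched 14185 of the 17134 rows (82.8%), but 0 of these 8. Their position, transcript type and sequence are therefore not given here, and no role can be named for any of them.

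The values are read counts that the authors normalized with DESeq2, called normalized counts below. The reads behind them were estimated from the value of 1 read in each rat and came to 12.9 to 21.2 M (mega) in the WT group, 13.7 to 16.7 M in the HIP group and 12.9 to 23.6 M in the AKO group. A transcript was called on in a rat with more than 3 estimated reads (tolerance 0.05 reads), values under 0.05 reads were taken as 0, and estimates of this kind cover counting error only. In 29 rats the mean log2 level of 7 cortical layer genes lay between 9.55 and 10.6, while it was 4.93 in WT rat 10RT43, in which the summed normalized count of 5 cerebellar genes was 51913. HIP rat 12RT23 also held cerebellar genes (6036), which summed to at most 955 in the 28 remaining rats. HIP rat 10RT46 held high levels of pineal gland genes (a sum of 22622, at most 106 in the others) and choroid plexus genes (15789), and AKO rat 7AKO19 of choroid plexus genes (3822, at most 312 in the 28 remaining rats). The AKO range overlapped those of the WT and HIP rats for all 14 marker lists of cell types and brain regions, but some medians stood apart. The median sum of neuron genes was 91501 in AKO, 112014 in WT and 112046 in HIP rats, and that of cortical layer genes 10461, 12636 and 12178. Astrocyte genes had medians of 58065 in AKO, 50192 in WT and 49784 in HIP rats, and microglia genes 3800, 3112 and 2968. Inhibitory neuron genes had medians of 10444 in AKO, 12273 in WT and 11716.5 in HIP rats. Excitatory neuron genes did not follow the neuron genes, with 63462 in AKO, 59010 in WT and 63536 in HIP rats. Larger relative gaps were those of olfactory bulb genes (911, 286 and 489) and choroid plexus genes (72.5, 51.1 and 48.3). Against HIP rats, striatal genes (4460, 4035 and 3175) and the blood list (8613, 6700 and 4432) also stood apart. Of the 4 genes of the blood list only 1 was in the table, so its values are those of a single gene. The part of these lists in the differences of AKO rats given below was not tested. In bulk tissue, fewer cells of a type and less RNA per cell cannot be told apart.

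Apart from ENSRNOG00000065100, which was close to the limit of detection, the largest relative difference was that of ENSRNOG00000064228. Its normalized count was lowest at 13.7, median 27.1 and highest at 52.6 in WT rats, and 21.6, 26.8 and 64.2 in HIP rats. In AKO rats the lowest value was 0, the median 2.42 and the highest 29.2. The transcript was on in 10 of 10 WT and 10 of 10 HIP rats and in 2 of 10 AKO rats. The AKO count depended on the cutoff, with 6 rats over 1 estimated read and 1 rat over 10. All WT and HIP rats were over both. Means were 28.9 ± 10.2 in WT, 33.2 ± 13.2 in HIP and 4.93 ± 8.89 in AKO rats (SD, n = 10 per group). A single AKO rat, 6KAH99 at 29.2, lay within the range of the WT and HIP rats, and the next AKO rat, 4KAH27, stood at 8.23. The difference of AKO from WT rats was -3.17 on the log2(normalized count + 1) scale and that from HIP rats -3.36. On this scale the change of a transcript with few reads is understated.

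ENSRNOG00000063986 was low but still on in most AKO rats at the cutoff of 3 estimated reads. The lowest, median and highest normalized counts were 8.89, 19.5 and 42.3 in WT rats, 7.76, 30.5 and 44.9 in HIP rats, and 1.09, 4.43 and 9.60 in AKO rats. It was on in all 20 WT and HIP rats and in 7 of 10 AKO rats. Over 1 estimated read there were 9 AKO rats. Over 10 estimated reads there were 0 AKO, 9 WT and 9 HIP rats. The group means were 21.4 ± 9.82 in WT, 28.8 ± 11.1 in HIP and 4.53 ± 2.32 in AKO rats (SD, n = 10 per group), so that the mean of the AKO rats was 4.73 times lower than that of WT rats. Here the AKO rat inside the WT and HIP range was 4KAH27 at 9.60, not 6KAH99, which stood at 3.90. The log2 difference was -2.02 from WT rats and -2.42 from HIP rats.

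ENSRNOG00000066451 had the most reads of the 5 lower transcripts and was on in all 30 rats. Its lowest, median and highest normalized counts were 294, 388 and 471 in WT rats, 270.1, 390.1 and 481 in HIP rats, and 51.4, 100.1 and 347 in AKO rats. The AKO rats were also the most unequal group, with a mean of 140 ± 95.8 compared with 385 ± 48.1 in WT and 375 ± 74.6 in HIP rats (SD, n = 10 per group). The values of 6 AKO rats lay between 51.4 and 118, and those of 6AKO35, 4KAH35, 6KAH99 and 6KAH98 were 178, 207, 220 and 347. Only the last of these lay within the WT and HIP range. The log2 difference was -1.72 from WT and -1.66 from HIP rats.

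ENSRNOG00000062707 depended on a single WT rat. In WT rats the lowest, median and highest normalized counts were 7.18, 54.3 and 113, in HIP rats 38.8, 66.1 and 130.9, and in AKO rats 6.05, 17.7 and 38.8. The lowest WT value was that of 10RT43, the rat with the high cerebellar genes, and those of the remaining 9 WT rats ran from 40.2 to 113. With 10RT43 included, 9 of 10 AKO rats fell within the joint range of the WT and HIP rats, while 1 of 10 fell within the HIP range alone. The means were 61.3 ± 30.2 in WT, 69.0 ± 28.9 in HIP and 20.6 ± 11.3 in AKO rats (SD, n = 10 per group), and the log2 differences of AKO rats were -1.48 from WT and -1.79 from HIP rats.

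ENSRNOG00000065100 was close to the limit of detection in all groups. Its lowest, median and highest normalized counts were 2.58, 5.22 and 9.64 in WT rats. In HIP rats 5 values were practically 0 and 5 lay between 2.97 and 11.8, and in AKO rats 7 were practically 0 and the highest was 3.01. It was on in 10 of 10 WT, 4 of 10 HIP and 1 of 10 AKO rats, so that the HIP rats stood between the other groups. This order depended on the cutoff, as 1 WT, 2 HIP and 0 AKO rats were over 10 estimated reads. WT rats 10RT50 and 10RT57 were on with 3.11 and 3.15 estimated reads, and HIP rat 10RT53 was off with 2.84. Estimated reads are not corrected for depth, with medians of 19.1 M in WT, 15.7 M in HIP and 16.1 M in AKO rats. The means were 5.44 ± 2.27 in WT, 3.95 ± 4.90 in HIP and 0.706 ± 1.24 in AKO rats (SD, n = 10 per group), with log2 differences of AKO rats of -2.10 from WT and -1.01 from HIP rats. All 10 AKO rats lay inside the HIP range and 2 of 10 inside the WT range.

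Of the 3 higher transcripts, ENSRNOG00000062944 had the largest ratio. Its lowest, median and highest normalized counts were 2.39, 20.2 and 36.9 in WT rats, 7.31, 17.9 and 27.98 in HIP rats, and 23.4, 60.4 and 225 in AKO rats. The highest AKO value, that of 4KAH27, was followed by 111 in 7AKO42, and the lowest, that of 6KAH99, was the only one inside the WT and HIP range. The lowest WT value was again that of 10RT43, and those of the remaining 9 ran from 11.4 to 36.9. The means were 20.1 ± 9.28 in WT, 18.3 ± 6.53 in HIP and 75.0 ± 57.6 in AKO rats (SD, n = 10 per group). The log2 differences of AKO rats were 1.78 from WT and 1.80 from HIP rats.

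ENSRNOG00000064257 had the most reads of all 8 transcripts. In the order lowest, median and highest, its normalized counts were 354, 461 and 739 in WT rats, 259, 436 and 691 in HIP rats, and 690, 899 and 1575 in AKO rats. The lowest AKO rat, 7AKO28, was the only one within the WT and HIP range. The AKO mean of 969 ± 241 was 1.91 times the WT mean of 507 ± 140 and 2.15 times the HIP mean of 451 ± 126 (SD, n = 10 per group), with log2 differences of 0.95 and 1.12.

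AC130970.1 was higher in AKO rats than in WT rats and overlapped widely with HIP rats. In the order lowest, median and highest, its normalized counts were 19.2, 30.8 and 44.1 in WT rats, 12.6, 37.2 and 64.9 in HIP rats, and 41.2, 67.0 and 94.4 in AKO rats. Of the AKO rats, 1 of 10 was inside the WT range and 5 of 10 were inside the HIP range. The means were 30.7 ± 7.55 in WT, 38.4 ± 19.2 in HIP and 68.2 ± 19.002 in AKO rats (SD, n = 10 per group), and the log2 differences of AKO rats were 1.11 from WT and 0.95 from HIP rats.

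**Figure D1:**
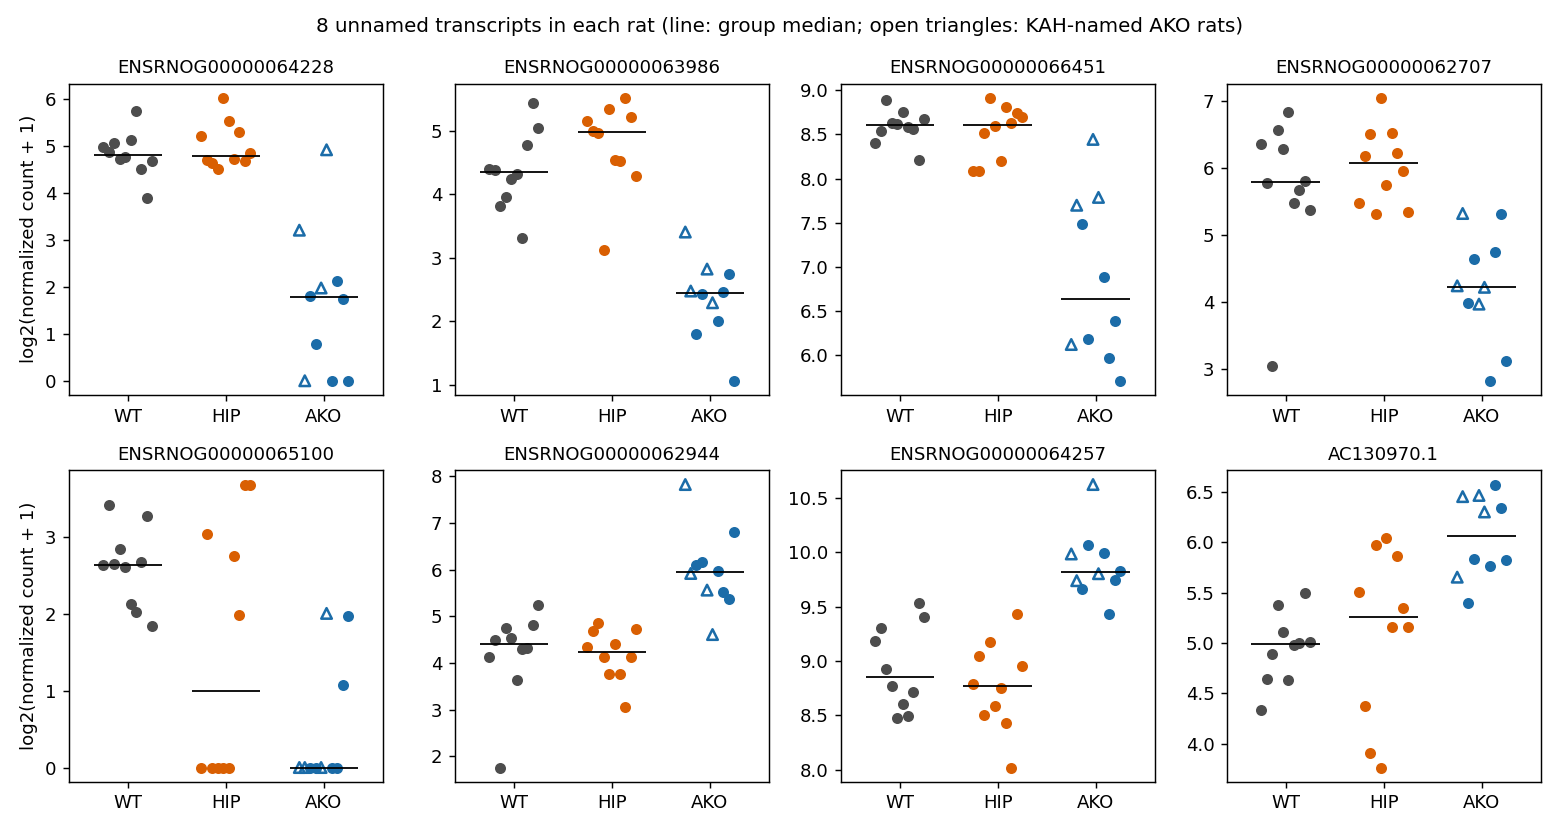
Log2(normalized count + 1) of the 8 transcripts in each rat, 1 panel per transcript, with 10 WT, 10 HIP and 10 AKO rats and a line at each group median. Open triangles are the 4 KAH-named AKO rats. In 5 panels a single AKO rat lies inside the WT and HIP range, and the low WT point for ENSRNOG00000062707 and ENSRNOG00000062944 is 10RT43.

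None of the 8 transcripts separated all 10 AKO rats from all 20 WT and HIP rats, and neither did any other row (0.0% of 17134). For 5 transcripts (ENSRNOG00000064228, ENSRNOG00000063986, ENSRNOG00000066451, ENSRNOG00000062944 and ENSRNOG00000064257), a single cutoff placed 29 of the 30 rats with their group, and 17 rows in all (0.0992%) did so. ENSRNOG00000062707 misplaced 2 rats, AC130970.1 4 rats and ENSRNOG00000065100 7 rats. With at most 2 rats misplaced, 53 rows (0.309%) passed, 6 of them among the 8. Since the transcripts were chosen for this pattern, these counts only describe it.

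The rat that went against the others was not the same one each time. 6KAH99 lay inside the WT and HIP range for 4 of the 8 transcripts and 4KAH27 also for 4. The other 8 AKO rats lay inside that range for 2 or 3 transcripts. All 10 AKO rats lay inside it for ENSRNOG00000065100, and 9 of 10 for ENSRNOG00000062707 because of WT rat 10RT43. These transcripts thus raise the counts of nearly all AKO rats. In 6KAH99, the value of ENSRNOG00000064228 was close to the WT mean while that of ENSRNOG00000063986 was far below it. In 4KAH27, ENSRNOG00000062944 was at the AKO maximum while ENSRNOG00000063986 was within the WT range. Among the 6 AKO rats named AKO, 4 transcripts (ENSRNOG00000064228, ENSRNOG00000063986, ENSRNOG00000066451 and ENSRNOG00000062944) did not overlap with the 20 WT and HIP rats, compared with 29 rows of the table (0.169%).

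The limma test over all genes restates the choice of the transcripts for AKO rats. In it, 6 of the 8 transcripts had an adjusted p-value under 0.05 for AKO vs. WT, in which 17 of 17058 genes (0.0997%) passed, and 6 of 8 for AKO vs. HIP, in which 29 of 17092 genes (0.17%) passed. ENSRNOG00000062707 and ENSRNOG00000062944 did not pass against WT rats, and ENSRNOG00000065100 and AC130970.1 did not pass against HIP rats. Without 10RT43, 8 of 8 passed against WT rats, in a fit in which 21 of 17025 genes passed. Both comparisons use the same AKO rats, on which the transcripts were chosen, so nothing is read from these counts. Of the 2865 tested rows without a gene name, 6 (0.209%) passed against WT rats, all of them among the 8, and of 14193 named genes 11 (0.0775%) passed. Against HIP rats, 13 of 2874 rows without a gene name (0.452%) passed, 6 of them among the 8, and 16 of 14218 named genes (0.113%).

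HIP rats were compared with WT rats to ask whether the transcripts also differed where human amylin is expressed, a contrast that was not used to choose them. None of the 8 passed, as 0 of 17085 genes did (0.0%). At an unadjusted p-value under 0.05, 439 genes (2.57%) and 0 of the 8 passed. The largest estimate was that of ENSRNOG00000065100, which was 1.09 lower on the log2 scale in HIP rats (limma estimate -1.09, standard error 0.53, 95% interval -2.19 to 0.00487, unadjusted p = 0.0509, adjusted p = 0.999). This estimate depended on the pseudocount, with -2.60 (unadjusted p = 0.0173) at 0.1 and -0.38 (unadjusted p = 0.148) at 5, and it was -1.33 (unadjusted p = 0.0156) without 12RT23. The limma adjusted p-value of this transcript was not under 0.05 in any of these fits. For ENSRNOG00000066451 the estimate was -0.06 with an interval of -0.29 to 0.17, and for ENSRNOG00000064257 it was -0.17 with an interval of -0.52 to 0.18. The other intervals were wider, with -0.26 to 0.63 for ENSRNOG00000064228, -0.19 to 0.99 for ENSRNOG00000063986, -0.43 to 1.05 for ENSRNOG00000062707, -0.71 to 0.69 for ENSRNOG00000062944 and -0.41 to 0.73 for AC130970.1. Changes of up to about these sizes cannot be told from no change in 10 rats per group.

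Inside the AKO group, the 4 rats named KAH were compared with the 6 named AKO, a division given by the letters in the rat names. Of 7 transcripts tested (ENSRNOG00000065100 was under the minimum mean), 0 passed at an adjusted p-value under 0.05, and 1 of 17030 genes did (0.00587%). At an unadjusted p-value under 0.05, 834 genes (4.9%) and 1 of the 7 passed. This was ENSRNOG00000066451, with a log2 difference of 1.08 in the KAH-named rats (limma, standard error 0.43, 95% interval 0.14 to 2.01, unadjusted p = 0.0281, adjusted p = 0.894). The unadjusted p-value was no longer under 0.05 without 4KAH35, 6KAH98, 6KAH99, 7AKO28 or 7AKO42, each left out alone, and without 6KAH98 the difference was 0.76 (limma unadjusted p = 0.106). The estimate for ENSRNOG00000064228 was larger, 1.45, but its interval ran from -0.40 to 3.29, and it was 0.65 without 6KAH99 and 2.29 without 4KAH35.

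**Figure D2:**
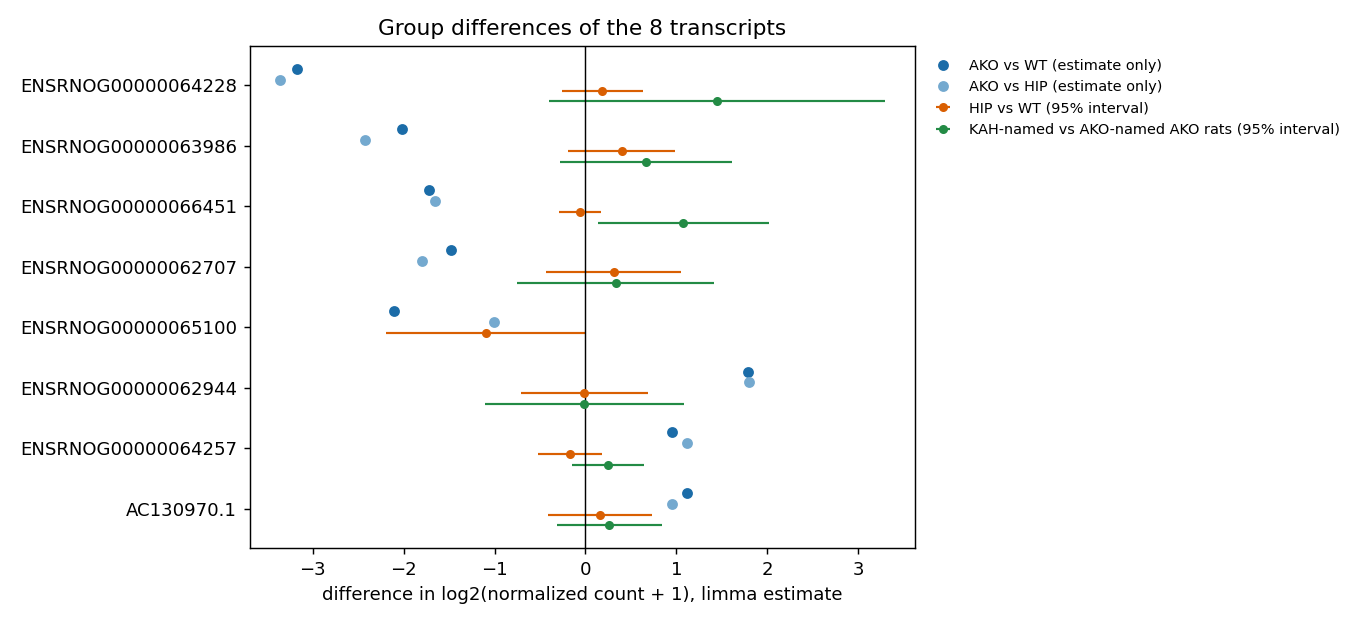
Differences of the 8 transcripts in log2(normalized count + 1) as estimated by limma. AKO vs. WT and AKO vs. HIP are drawn as estimates only, and HIP vs. WT and KAH-named vs. AKO-named rats with 95% intervals. All 8 intervals of HIP vs. WT include 0, and of the 7 within the AKO group only that of ENSRNOG00000066451 does not.

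The reads of some of these transcripts were divided between rows. The estimated reads of ENSRNOG00000063986, ENSRNOG00000062707, ENSRNOG00000062944 and AC130970.1 were whole numbers, within 0.05 reads, in 30 of 30 rats. Of 5486 rows with a mean of 1 to 100 reads, 4139 (75.4%) were whole throughout. ENSRNOG00000066451 had part reads in 22 rats, ENSRNOG00000064228 in 20, ENSRNOG00000065100 in 18 and ENSRNOG00000064257 in 27. The counts of transcripts with part reads, their values near 0 included, depend on how shared reads were divided. The part of that division in the differences of AKO rats was not tested.

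For ENSRNOG00000066451, a search over pairs of rows with part reads in at least 3 rats found partners with which its reads added to whole numbers. Together with ENSRNOG00000067192 and Dpp3, the sum was whole in 22 of 22 rats with part reads and in 30 of 30 rats in all, while the next best pair reached 12 of 22. Dpp3 encodes dipeptidyl peptidase 3, a metallopeptidase that removes dipeptides from the ends of small peptides. Both partners were found after the values were seen. For the other 3 transcripts with part reads no pair stood out, with 12 of 20 rats against 11 for the next pair for ENSRNOG00000064228, 11 of 18 against 11 for ENSRNOG00000065100 and 13 of 27 against 13 for ENSRNOG00000064257.

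The sum of the 3 rows was at a like level in the groups, while the share of ENSRNOG00000066451 in it was not. The summed normalized count was 1145 ± 97.3 in WT, 1095 ± 80.3 in HIP and 1119 ± 165 in AKO rats (SD, n = 10 per group), so that the means differed by less than 1 SD. ENSRNOG00000066451 made up 33.7% ± 3.99 of the sum in WT rats, 34.2% ± 6.16 in HIP rats and 12.4% ± 7.62 in AKO rats. The AKO rats held 4.95% to 23.6%, all below the WT range of 28.2% to 39.8% and just below the lowest HIP rat at 23.7%. ENSRNOG00000066451 was chosen for its low values in AKO rats, so its share restates that choice. Such shares were not computed for other rows, so how often they set groups apart is not known. 6KAH98, which lay inside the WT and HIP range by its count, had the highest sum of all rats (1469) and the highest AKO share.

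The partners stood higher in AKO rats. ENSRNOG00000067192 had 391 ± 58.4 in WT, 372 ± 63.6 in HIP and 541 ± 101 in AKO rats (SD, n = 10 per group), a log2 difference of 0.46 from WT (limma, standard error 0.11, adjusted p = 0.138) and 0.53 from HIP rats (adjusted p = 0.0709). Dpp3 had 369 ± 38.4, 348 ± 35.6 and 438 ± 58.3, with log2 differences of 0.24 (limma adjusted p = 0.367) and 0.32 (adjusted p = 0.127). None of these differences passed the threshold. By the whole sums the partners share reads with ENSRNOG00000066451, which was chosen for its low values in AKO rats. Their differences are therefore not independent of that choice, and nothing is read from these p-values. How the counting divided the reads of the 3 rows was not tested. The count of ENSRNOG00000066451 in a rat is thus an estimate that depends on that division.

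**Figure D3:**
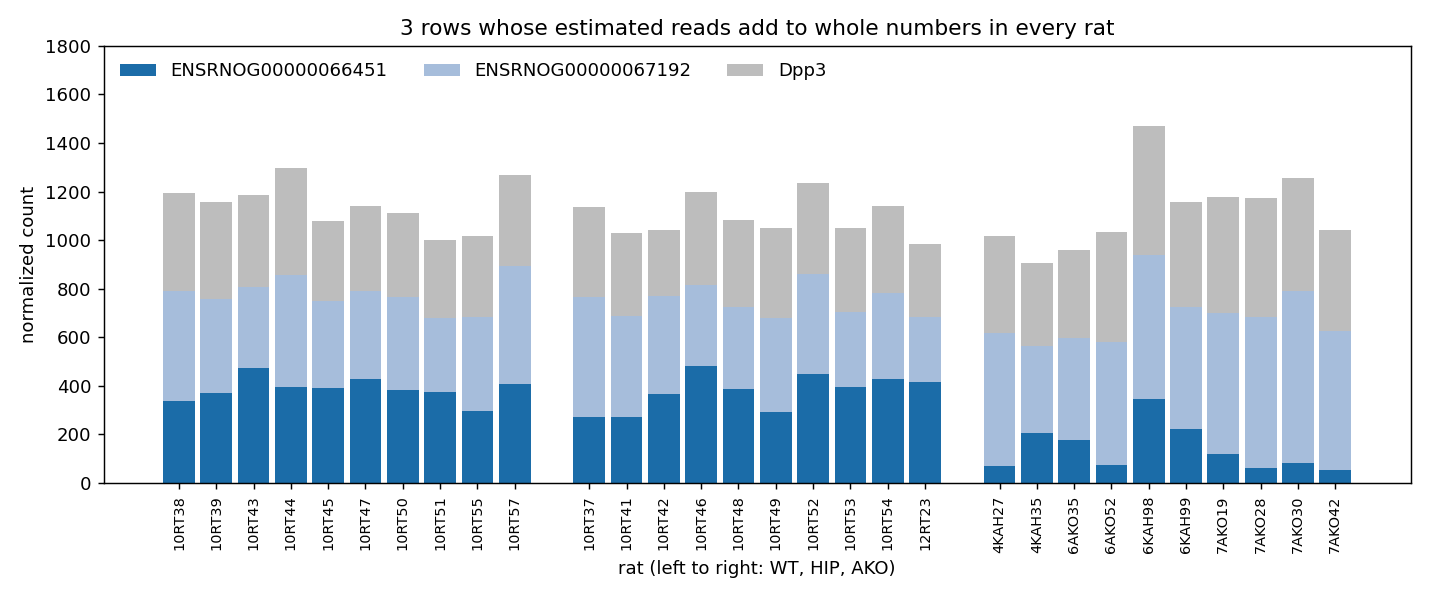
Normalized counts of ENSRNOG00000066451, ENSRNOG00000067192 and Dpp3 stacked for each of the 30 rats, with WT rats on the left, HIP rats in the middle and AKO rats on the right. The stacks have similar heights in the 3 groups (means 1145, 1095 and 1119), while the lowest part, ENSRNOG00000066451, is smaller in AKO rats.

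The transcripts were also compared with each other inside each group of 10 rats. Pairs were used if both transcripts were on in at least 6 rats of the group, which gave 28 pairs in WT, 21 in HIP and 15 in AKO rats. The median Pearson's r was -0.010 in WT, -0.29 in HIP and 0.098 in AKO rats. Of the 64 correlations, 4 had an unadjusted p-value under 0.05 and 0 an adjusted p-value under 0.05 (two-sided permutation test, Benjamini-Hochberg over all 64).

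The strongest was that of ENSRNOG00000064228 with ENSRNOG00000063986 in WT rats, with a Pearson's r of -0.876 (permutation p = 0.00198, adjusted p = 0.127) and a Spearman's rho of -0.745 (permutation p = 0.0172, adjusted p = 0.336). Without 10RT50 and 10RT55, the rats farthest from the median, r was -0.545, so that much of it rested on these rats. In HIP rats the same pair had an r of 0.478 (permutation p = 0.162, adjusted p = 0.518). Over all 30 rats ENSRNOG00000064228 was the row most like ENSRNOG00000063986 (r = 0.782), a value that comes with the low level of both in AKO rats.

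**Figure D4:**
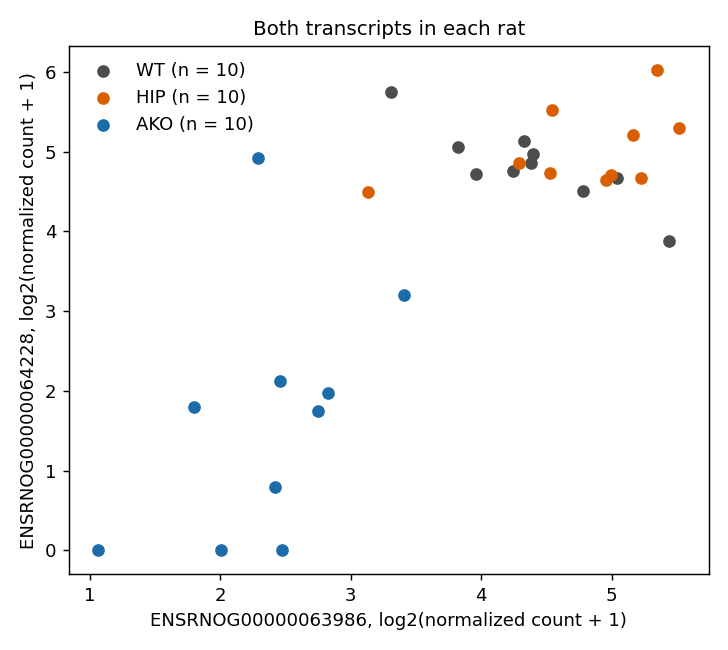
ENSRNOG00000064228 against ENSRNOG00000063986, both as log2(normalized count + 1), in each of the 30 rats, colored by group. The AKO rats lie at the lower left except 6KAH99, whose ENSRNOG00000064228 is at the WT level, and the 10 WT rats run downward to the right (r = -0.876).

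For each transcript, the rows with the most similar levels over the 30 rats were listed by Pearson's r of the log2 values. The points share the 3 groups and the libraries, so these values are a description. ENSRNOG00000064228 was most like Pcdhb6 (r = 0.861), a protocadherin of the neuronal cell surface, Akr1b10 (0.829), an aldo-keto reductase, and Zfp14 (0.816), a zinc finger gene. Akr1b10 was also among the 3 rows most like ENSRNOG00000063986 (r = 0.763) and ENSRNOG00000065100 (0.633), and its normalized count was 211 ± 56.9 in WT, 184 ± 52.1 in HIP and 75.9 ± 27.2 in AKO rats (SD, n = 10 per group). Within WT rats, its r with ENSRNOG00000064228 was -0.27, and within AKO rats 0.78, where 6KAH99 had the highest Akr1b10 (145.2, compared with 50.1 to 84.3 in the others). Cmklr1, a receptor of chemerin, had the lowest r with ENSRNOG00000064228 (-0.784) and ENSRNOG00000063986 (-0.810), at 63.3 ± 5.83 in WT and 129 ± 43.2 in AKO rats.

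ENSRNOG00000063986 was also like Cnot7 (r = 0.749), a subunit of the complex that shortens the poly(A) tails of mRNAs, and here r was similar inside the groups, with 0.74 in WT, 0.66 in HIP and 0.66 in AKO rats. ENSRNOG00000066451 was most like Tecta (r = 0.815), which encodes a matrix protein known from the inner ear, then Zfp14 (0.795) and ENSRNOG00000064228 (0.761), and least like Fcgr2b (-0.767), an inhibitory receptor for antibodies. With Tecta, r was 0.81 inside the AKO group but -0.23 in WT and -0.02 in HIP rats. ENSRNOG00000065100 had weaker relations, to Hlcs (r = 0.642), which attaches biotin to carboxylases, and Zdhhc2 (0.618), a palmitoyltransferase, and the lowest to Itgb2 (-0.669), a leukocyte integrin.

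ENSRNOG00000062707 was most like ENSRNOG00000067495 (r = 0.826), Nipa1 (0.809), a magnesium transporter, and Atp1b1 (0.791), a subunit of the sodium pump, and least like Rhot2 (-0.810), a GTPase of the outer mitochondrial membrane. Its r with Atp1b1 was 0.95 in WT, 0.88 in HIP and 0.41 in AKO rats. The WT values include 10RT43.

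ENSRNOG00000062944 was most like Htra1 (r = 0.858), a secreted serine protease, Plin4 (0.826), a coat protein of lipid droplets, and Lsp1 (0.815), an actin-binding protein of leukocytes, and least like Utp23 (-0.827), which takes part in making ribosomes. Plin4 had 109 ± 34.5 in WT, 136.9 ± 36.6 in HIP and 218 ± 128 in AKO rats (SD, n = 10 per group), and its r with ENSRNOG00000062944 inside the AKO group was 0.92.

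ENSRNOG00000064257 had the highest r of the 8 lists. Its 4 relations kept their sign inside every group, as did those of ENSRNOG00000065100, ENSRNOG00000062707 and ENSRNOG00000062944. Its r was 0.886 with AABR07071482.2, another row named by a clone, with 0.88 in WT, 0.86 in HIP and 0.83 in AKO rats. It was followed by Mrpl52 (0.841), a protein of the mitochondrial ribosome, and Rpl6-ps1 (0.838), a pseudogene of a ribosomal protein whose reads can be shared with its parent gene. The lowest r of all 8 lists was that of ENSRNOG00000064257 with Pcdhb5 (-0.900), another protocadherin, which had 241 ± 51.5 in WT, 245 ± 49.7 in HIP and 139.3 ± 26.1 in AKO rats (SD, n = 10 per group). AC130970.1 was most like Igsf21 (r = 0.720), an immunoglobulin-type adhesion protein, Cibar2 (0.711) and Rhot2 (0.708), and least like Clcn4 (-0.737), a chloride transporter. With Rhot2, r was 0.83 in HIP rats but -0.08 in AKO rats.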

How the data were processed

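Cortex RNA of 10 WT, 10 HIP and 10 AKO rats was sequenced from SMARTER mRNA-seq libraries. In Partek Flow, the authors mapped reads to rn7, assigned them to Ensembl105 genes and scaled the gene counts by DESeq2. The submitters' processing notes name Partek 10.0.22.0228, STAR 2.7.8a and Bowtie2. The deposited values are this normalized signal, which is not in whole numbers. How reads that match several genes were divided is not given in the sources used here.

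As the worth of 1 read, each rat was given the largest step whose whole multiples (tolerance 0.02) held nearly the largest share of the low values. The step was then refined by least squares on values up to 100. Between 80.9% and 84.4% of values were whole multiples, so whole reads were not recovered and no count test was run. The estimated reads per rat, 12.9 to 23.6 M (mega), give a precision of about 1 read. The floor was 3 estimated reads.

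Groups were compared on log2(normalized count + 1) by the two-sided test of limma 3.58.1 (R 4.3.3; lmFit, then eBayes with trend). Genes needed a mean of 1 or more over the rats compared, with Benjamini-Hochberg adjustment over all genes tested. No covariates were used. Correlations used 100000 resamples in scipy 1.17.1 (Python 3.11.15). The fit was tested on simulated data. The labels do not say how the samples of a group were obtained beyond 1 library per rat.

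The transcripts, marker lists and tests were chosen with earlier results of these data known. The genes named are the 8 transcripts and, for each, the 3 rows with the highest and the 1 row with the lowest Pearson's r over the 30 rats. Dpp3 and ENSRNOG00000067192 were named after their values were seen. The marker lists hold 70 genes, 63 of them in the table.

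The alternatives were other pseudocounts and filters, other normalizations and fits, covariates, and each rat left out in turn.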

Additional observations from a re-analysis of the deposited data

Results flagged for a closer look

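Each transcript was examined in each group of 10 rats for a highest or lowest rat far from the rest (Dixon's test at the 95% level). This was so in 4 of 24 groups. Chance alone gives about 1 in 20 only where values are normally distributed, and read counts can be skewed. The test was run on normalized counts and not on log2 values. Which rats were flagged depends on that scale, so nothing is read from the number of flags. In WT rats, the normalized count of ENSRNOG00000064228 was 52.6 in 10RT50. In AKO rats, ENSRNOG00000064228 was 29.2 in 6KAH99, ENSRNOG00000062944 was 225 in 4KAH27 and ENSRNOG00000064257 was 1575 in 6KAH98. The 3 AKO rats all have KAH names. 4KAH27 also had the highest sum of 5 striatal genes in the AKO group (12074, compared with 1850 to 7551 in the others) and the lowest mean log2 level of 5 microglial genes of all rats (7.67, compared with 8.01 to 9.72), and the part of either in the value of ENSRNOG00000062944 was not tested.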

How the results depend on the processing

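No paired analysis was possible because the labels give no replicate numbers that the groups share. Of the 8 transcripts, 0 passed for HIP vs. WT and 0 for KAH-named vs. AKO-named rats under every alternative tried. With estimated reads as a covariate, 740 genes passed for HIP vs. WT (limma, 0 without it), and the log2 difference of ENSRNOG00000062944 changed sign, from -0.01 to 0.67 (adjusted p = 0.284). With all 30 rats in a single fit, 27 genes passed for AKO vs. WT (17 in the fit of the groups compared), 56 for AKO vs. HIP (29) and 8 for KAH-named vs. AKO-named rats (1). With library number as a covariate, 31 genes passed for AKO vs. WT. Chosen after seeing the data, leaving out the 4 KAH-named rats gave 68 genes for AKO vs. WT and 120 for AKO vs. HIP, and leaving out 10RT46 and 7AKO19 gave 47 for AKO vs. HIP. Voom on estimated reads called 11 higher and 14 lower genes for AKO vs. HIP, compared with 17 higher and 12 lower. On estimated reads, 1 transcript, ENSRNOG00000063986, separated all AKO rats from the others (0 on normalized counts). Estimated reads are not corrected for depth. The highest AKO rats, 7AKO30 and 4KAH27, and the lowest HIP rat, 10RT46, were only about as far apart as the precision of these estimates. How many rows of the whole table separate the AKO rats on estimated reads is not given here, so nothing is read from this separation. The cause of the changes listed in this paragraph was not tested.

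With each rat left out in turn, the genes passing ranged from 10 to 39 for AKO vs. WT, 17 to 70 for AKO vs. HIP, 0 to 0 for HIP vs. WT and 1 to 8 for KAH-named vs. AKO-named rats. The transcripts passing ranged from 6 to 8 for AKO vs. WT and were 6 for AKO vs. HIP. Between 0 and 2 transcripts did not overlap, with 2 without 6KAH99 and 1 each without 4KAH27, 6KAH98 and 7AKO28. The transcripts were chosen for this pattern, and rows of the whole table were not counted with the same rat left out. With all 30 rats, 17 rows of the table (0.0992%) misplaced at most 1 rat. For AKO vs. WT, ENSRNOG00000064228 did not pass at a pseudocount of 0.1, nor ENSRNOG00000065100 and AC130970.1 in the single fit of 30 rats. ENSRNOG00000062707 passed without 10RT43, and ENSRNOG00000062944 passed without 10RT43 or 6KAH99, in the single fit and with library number. At this depth, ENSRNOG00000065100 rests on at most about 12 reads a rat.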
